A study of Arabidopsis thaliana with 4 samples.

Results

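Polycomb and histone methylation regulators were followed in the wounded region of Arabidopsis thaliana leaf explants, through 9 genes chosen by their locus identifiers from the 37686 genes of the deposited expression table. The genes encode subunits and a reader of the Polycomb system (CLF, SWN, EMF2, VRN2, FIE and LHP1), writers of activating marks (ATX1 and SDG8) and a remover of the Polycomb mark (REF6). LHP1 and SDG8 are entered in the RefSeq annotation as TFL2 and EFS. Both groups were wild-type Col-0. The seedlings were grown on MS medium with sucrose at 22 °C with 16 h of light and 8 h of darkness, and leaves with part of the petiole were cut from them at an age of 12 days. The first group had then spent 2 days on B5 medium with sucrose in darkness, also at 22 °C, and the second was sampled at time 0, before culture, with 2 libraries in each group. The explants at 2 days therefore differed from those at time 0 in wounding time, light, medium and age together.

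Polycomb repressive complex 2 (PRC2) places trimethylation on lysine 27 of histone H3 (H3K27me3), a mark of genes held silent. Its catalytic subunit is CLF or SWN in vegetative tissue, which act with FIE, a WD40 protein that binds the complex together, and with EMF2 or VRN2, zinc-finger subunits related to Drosophila Su(z)12. LHP1 binds H3K27me3. REF6 is a Jumonji demethylase that removes it. ATX1, a trithorax homologue, methylates lysine 4 of histone H3 (H3K4), and SDG8 methylates lysine 36 (H3K36), both marks of active genes. In leaf explants this system is known for its role in changing leaf identity when new organs or callus form.

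Transcripts of all 9 regulators were present in every library, at 4.58 to 28.17 TPM, and they changed little during culture. TPM (transcripts per 1000000) corrects the reads of a gene for the length of its transcript and gives every library the same total, so that levels can be compared between genes, while small differences between libraries still depend on the scaling. After 2 days SWN was higher, and CLF, VRN2, LHP1 and REF6 were lower, whereas EMF2, FIE, ATX1 and SDG8 did not pass the test. The sizes of the differences ran from 0.040 to 0.33 on the log2(TPM + 1) scale, with a median size of 0.21 over the 9 genes against 0.51 over all 19078 genes tested. Of the tested genes, 64.5% had a larger difference than any of the 9. The test was limma's moderated test, run on every gene that averaged 1 TPM or more, and a gene was called at a Benjamini-Hochberg adjusted p below 0.05.

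**Figure D1:**
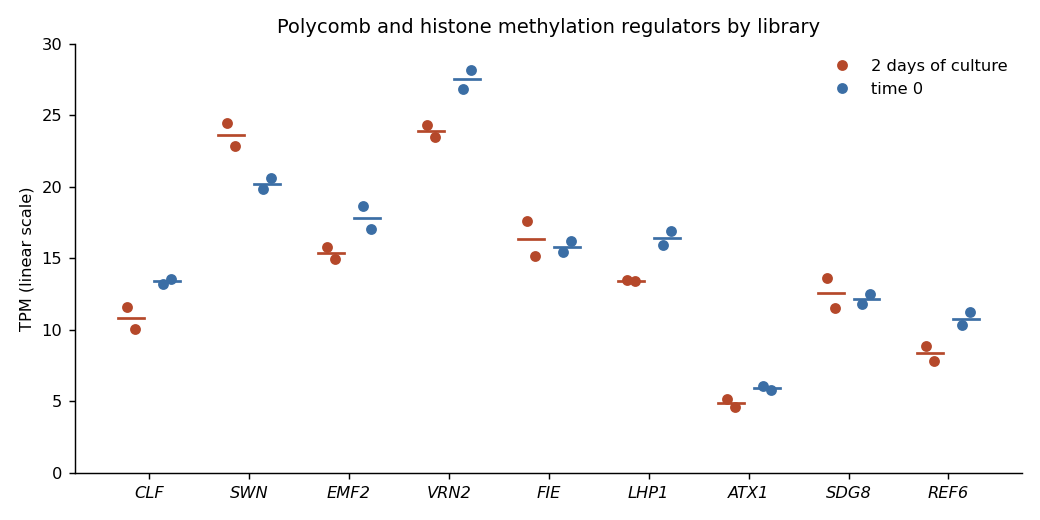
Level of each regulator in TPM (linear axis) in every library. Points are single libraries and short lines are group means, with 2 days of culture (red) to the left of time 0 (blue) for each gene. SWN lies higher at 2 days, FIE and SDG8 overlap between the groups, and the other 6 lie lower at 2 days.

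The number called has to be read against the whole table. Among the 9 genes 5 were called, 1 higher and 4 lower, while 68.8% of all tested genes were called, 39.2% higher and 29.5% lower. The 2 groups did not overlap in 7 of the 9 genes, against 86% of all tested genes. Both cultured libraries were lower than both of time 0 in 6 of the 9 genes, against 37.7% of all tested genes. They were both higher in 1 of the 9, against 48.2% of all tested genes. The median log2 difference was -0.20 over the 9 genes and 0.092 over all tested genes. It is not stated whether replicate libraries came from separate plants or cultures, so the p-values rest on a spread that may be technical. In such bulk tissue, fewer cells of a type and less RNA per cell cannot be told apart.

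The scaling of the libraries moves all of these small differences. Quantile normalization set the median of all tested genes at -0.057, and rescaling the TPM after leaving out organelle genes and the 100 genes with the highest levels set it at -0.021, against 0.092 with the TPM as deposited. Called genes numbered 7485 higher and 5636 lower with the deposited TPM, and 6385 higher and 7187 lower after quantile normalization, so that the share called higher was 57.05% and 47.05%. Relative to the median of all tested genes, SWN was higher by 0.12, FIE and SDG8 stood at -0.047 and -0.052, and the other 6 genes stood between -0.42 for REF6 and -0.29 for VRN2. CLF, EMF2, VRN2, LHP1, ATX1 and REF6 had negative log2 differences and SWN a positive one under all 3 scalings.

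**Figure D2:**
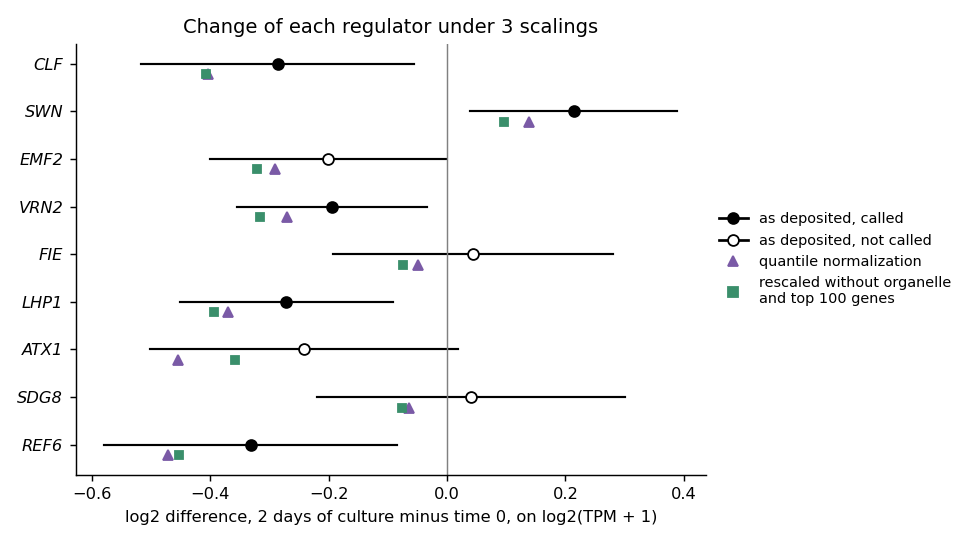
Log2 difference (2 days of culture minus time 0) of each regulator on the log2(TPM + 1) scale. Circles with 95% intervals from limma use the TPM as deposited (filled where called), triangles use quantile normalization and squares a rescaling without organelle and top 100 genes. CLF, EMF2, VRN2, LHP1, ATX1 and REF6 lie below 0 under all 3 scalings, SWN lies above 0, and FIE and SDG8 change side.

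The 2 catalytic subunits of PRC2 moved in opposite directions. CLF (AT2G23380) had 11.57 and 10.09 TPM at 2 days, against 13.24 and 13.56 TPM at time 0. Both cultured libraries were lower than both libraries of time 0, and the means differed by -19.2% (10.8 ± 1.05 TPM at 2 days and 13.4 ± 0.226 TPM at time 0, SD, n = 2 each). The log2 difference was -0.29 (SE 0.09, limma adjusted p = 0.0369). SWN (AT4G02020), the partly redundant counterpart of CLF, had 24.44 and 22.83 TPM at 2 days, against 19.83 and 20.63 TPM at time 0. Both cultured libraries were higher, by 16.8% in the means (23.6 ± 1.14 TPM at 2 days and 20.2 ± 0.566 TPM at time 0), with a log2 difference of 0.21 (SE 0.07, limma adjusted p = 0.0384). The SWN call was lost with quantile normalization (0.14, limma adjusted p = 0.0757) and with the rescaled TPM (0.10, limma adjusted p = 0.255), while CLF was called under both. CLF was not called without a filter (limma adjusted p = 0.0621) or with the replicate number as a block (0.0628). SWN was not called without a variance trend (limma adjusted p = 0.0551) or with that block (0.0876). The CLF call was lost without 2 DAC replicate 2 and without either library of time 0 (limma adjusted p = 0.0938, 0.152 and 0.185), and that of SWN without 2 DAC replicate 1 and without either library of time 0 (limma adjusted p = 0.0969, 0.216 and 0.133). Over the 12 alternatives the adjusted p ran from 0.00695 to 0.185 for CLF and from 0.0331 to 0.255 for SWN.

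The summed level of both catalytic genes was 36.01 and 32.92 TPM at 2 days, against 33.07 and 34.19 TPM at time 0. These sums overlapped between the groups. SWN made up 67.9% and 69.3% of the sum at 2 days, against 59.96% and 60.3% at time 0, a difference of 8.46 percentage points. This share does not depend on a common scaling factor of the library. An exact two-sided permutation test over the 4 libraries gave p = 0.333, the smallest value that 2 against 2 libraries allow.

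The zinc-finger subunits EMF2 and VRN2 both had lower means after culture, and only VRN2 passed the test. EMF2 (AT5G51230), the main partner of CLF in vegetative growth, had 15.8 and 14.96 TPM at 2 days, against 18.64 and 17.03 TPM at time 0 (log2 difference -0.20, SE 0.08, limma adjusted p = 0.0687). VRN2 (AT4G16845), known for the silencing of flowering genes after cold, had 24.34 and 23.51 TPM at 2 days, against 26.88 and 28.17 TPM at time 0 (log2 difference -0.19, SE 0.06, limma adjusted p = 0.0391). The groups overlapped in neither gene, and the means differed by -13.8% for EMF2 and -13.1% for VRN2. EMF2 was called lower with quantile normalization (limma adjusted p = 0.0217) and with the rescaled TPM (limma adjusted p = 0.0169). VRN2 was not called without a variance trend (limma adjusted p = 0.0603) or with the replicate number as a block (0.0970). The VRN2 call was lost on leaving out any 1 of the libraries, with a limma adjusted p of 0.0570 without 2 DAC replicate 1, 0.0924 without 2 DAC replicate 2, 0.127 without time 0 replicate 1 and 0.237 without time 0 replicate 2. Over the 12 alternatives the adjusted p ran from 0.00658 to 0.237 for VRN2 and from 0.0169 to 0.359 for EMF2.

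The balance of these subunits lay within the spread of the libraries. VRN2 made up 60.6% and 61.1% of the sum of EMF2 and VRN2 at 2 days, against 59.1% and 62.3% at time 0 (exact two-sided permutation p = 1). The sum itself was 40.14 and 38.47 TPM at 2 days, against 45.52 and 45.2 TPM at time 0. Both sums of cultured explants were lower than both sums of time 0.

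FIE (AT3G20740) had 17.61 and 15.18 TPM at 2 days, against 15.45 and 16.21 TPM at time 0. The 2 days libraries enclosed those of time 0, and the log2 difference was 0.044 with a 95% interval of -0.19 to 0.28 (limma adjusted p = 0.687). Its sign turned negative with quantile normalization (-0.049) and with the rescaled TPM (-0.074). MSI1 (AT5G58230), the other WD40 subunit, which also serves in chromatin assembly, rose instead, with 42.92 and 42.52 TPM at 2 days against 34.14 and 33.2 TPM at time 0 (log2 difference 0.33, limma adjusted p = 0.00353), and it was called higher in all 12 alternatives. A gene on the opposite strand covers 5.26% of the 50-base windows of MSI1 transcripts. The subunits known from seeds were near or at 0: MEA (AT1G02580) had 0.13 and 0.04 TPM at 2 days against 0 and 0.04 TPM at time 0, and FIS2 (AT2G35670) was listed at 0 in all 4 libraries.

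LHP1 (AT5G17690), the reader of H3K27me3, had 13.47 and 13.39 TPM at 2 days, against 15.94 and 16.92 TPM at time 0. The cultured libraries were both lower and lay closer to each other than those of time 0, and the means differed by -18.3%. The log2 difference was -0.27 (SE 0.07, limma adjusted p = 0.0190), the lowest p among the 9 genes, and it remained negative in all 12 alternatives (-0.39 to -0.22). Its call was lost without 2 DAC replicate 1 (limma adjusted p = 0.0587), without 2 DAC replicate 2 (0.0639), without time 0 replicate 1 (0.0835) and without time 0 replicate 2 (0.157), and over all 12 alternatives the adjusted p ran from 0.00457 to 0.157.

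Among the writers of activating marks, ATX1 and SDG8 did not pass the test with the TPM as deposited. ATX1 (AT2G31650) had 5.14 and 4.58 TPM at 2 days, against 6.07 and 5.77 TPM at time 0, the lowest levels among the 9 genes. The groups did not overlap, and the log2 difference was -0.24 with a 95% interval of -0.50 to 0.019 (limma adjusted p = 0.0854). ATX1 was called lower with quantile normalization (-0.45, limma adjusted p = 0.00920) and with the rescaled TPM (-0.36, limma adjusted p = 0.0291). SDG8 (AT1G77300), the main H3K36 methyltransferase, had 13.61 and 11.51 TPM at 2 days, against 11.8 and 12.51 TPM at time 0. The 2 days libraries enclosed those of time 0, and the log2 difference was 0.040 with a 95% interval of -0.22 to 0.30 (limma adjusted p = 0.742). For SDG8 the sign turned negative with quantile normalization (-0.065) and with the rescaled TPM (-0.077), and an opposite-strand gene covers 4.16% of its windows.

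REF6 (AT3G48430) had 8.9 and 7.86 TPM at 2 days, against 10.34 and 11.25 TPM at time 0. Both cultured libraries were lower, and the means differed by -22.4% (8.38 ± 0.735 TPM at 2 days and 10.8 ± 0.643 TPM at time 0), the largest difference among the 9 genes. The log2 difference was -0.33 (SE 0.10, limma adjusted p = 0.0285), and it was -0.47 with quantile normalization and -0.45 with the rescaled TPM. REF6 was not called without a filter (limma adjusted p = 0.0536) or with the replicate number as a block (0.0550). The call was lost without 2 DAC replicate 2 (limma adjusted p = 0.110), without time 0 replicate 1 (0.0929) and without time 0 replicate 2 (0.185), and over the 12 alternatives the adjusted p ran from 0.00449 to 0.185.

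In the order of levels VRN2 came first and SWN second in both groups, REF6 second to last and ATX1 last. At 2 days VRN2 and SWN were not separated by their libraries, nor were FIE and EMF2, LHP1 and SDG8, or SDG8 and CLF, while all other neighbours in the order were. At time 0 the only neighbours that overlapped were LHP1 and FIE. Averaged over the 4 libraries the 9 genes stood at 5.39 to 25.7 TPM, with a median of 14.9 TPM, against a median of 16.1 TPM over all tested genes.

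The libraries within a group also differed in a shared direction. At 2 days the level in replicate 2 was below that in replicate 1 in 9 of the 9 genes, as it was in 41 of 52 tested genes of the other chromatin lists and in 59.6% of all tested genes. At time 0 replicate 2 was below replicate 1 in 2 of the 9 genes (EMF2 and ATX1), in 16 of the 52 and in 37.7% of all tested genes.

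Genes that work with or against the 9 regulators were taken from 10 lists with 57 members, of which 52 were tested. Of these, 6 were higher, 18 lower and 28 not called, or 46.2% called, against the 68.8% of all tested genes. Their median log2 difference was -0.082. The groups did not overlap in 37 of the 52, against the 86% given above. Of the 24 calls, 1 higher call (MSI1) and 8 lower calls (VEL1, BPC1, ELF6, JMJ30, ATX2, WDR5a, ATXR5 and ULT1) held in every alternative that could test them.

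**Figure D3:**
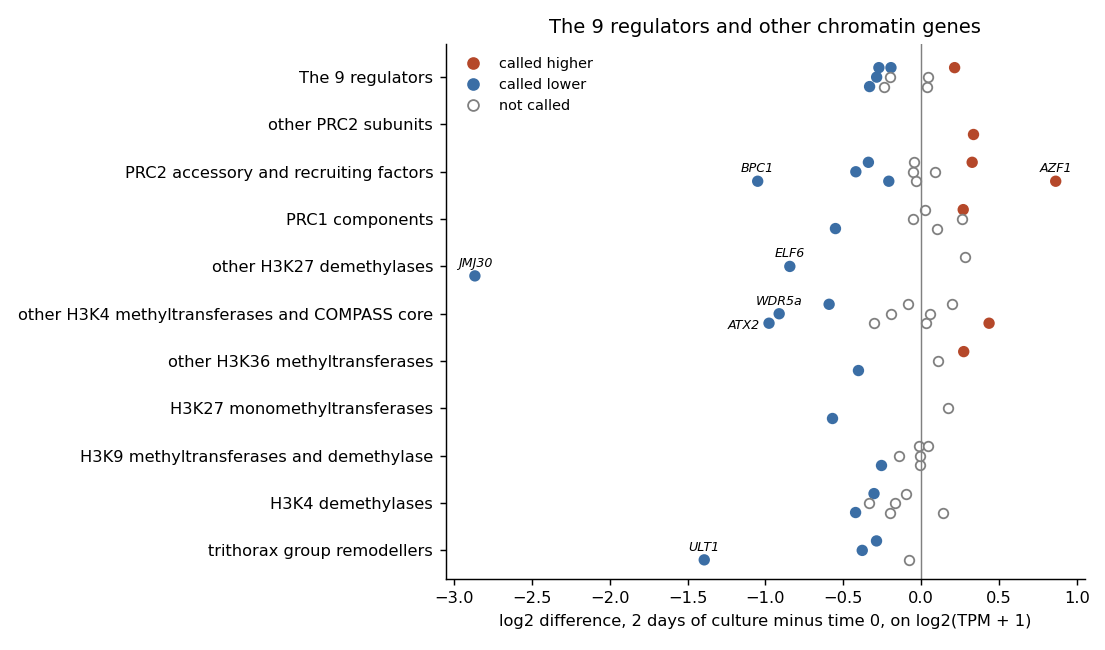
Log2 difference (2 days of culture minus time 0, on the log2(TPM + 1) scale) of each tested gene in the 9 regulators and in the other chromatin lists. Each point is a gene, filled where called and open where not, and points are offset vertically for legibility. The 9 regulators lie between -0.33 and 0.21, while JMJ30, ULT1, BPC1, ATX2, WDR5a and ELF6 lie below -0.8.

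Some counterparts of REF6 (ELF6 and JMJ30) and of ATX1 (ATX2) fell, with log2 differences of larger size than those of REF6 and ATX1. The gap between the changes was not tested. ELF6 (AT5G04240), the closest relative of REF6 and also an H3K27 demethylase, had 9.19 and 7.94 TPM at 2 days, against 15.36 and 16.93 TPM at time 0 (log2 difference -0.84, limma adjusted p = 0.00110). JMJ30 (AT3G20810), a Jumonji demethylase whose transcript is under clock control, had 24.52 and 26.32 TPM at 2 days, against 190.6 and 192.09 TPM at time 0 (log2 difference -2.86, limma adjusted p = 8.02e-06). The labels do not state at what time of day tissue was taken. JMJ32 (AT3G45880), a relative of JMJ30, had 2.22 and 2.4 TPM at 2 days, against 1.64 and 1.82 TPM at time 0, and was not called (limma adjusted p = 0.108). ATX2 (AT1G05830), the paralogue of ATX1, had 12.89 and 11.38 TPM at 2 days, against 24.6 and 25.03 TPM at time 0 (log2 difference -0.98, limma adjusted p = 0.000307). ATX1 and ATX2 share 0.0561% of the ATX1 windows, so that few reads could be divided between them.

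These pairs were chosen after their values were seen, and their shares are given without a test. ATX1 made up 28.5% and 28.7% of the sum of ATX1 and ATX2 at 2 days, against 19.8% and 18.7% at time 0, while the sum was 18.03 and 15.96 TPM at 2 days against 30.67 and 30.8 TPM at time 0. REF6 made up 49.2% and 49.7% of the sum of REF6 and ELF6 at 2 days, against 40.2% and 39.9% at time 0, and that sum was 18.09 and 15.8 TPM at 2 days against 25.7 and 28.18 TPM at time 0. In both pairs the sums and the shares did not overlap between the groups.

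**Figure D4:**
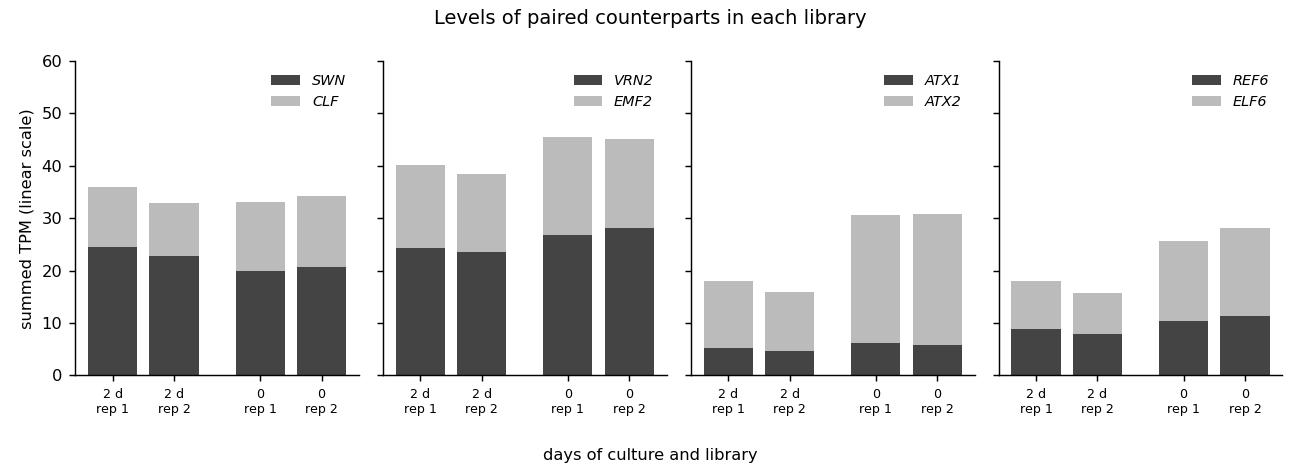
Summed TPM (linear axis from 0) of 4 pairs of counterparts in each library, the libraries of 2 days of culture to the left of those of time 0. Dark bars are SWN, VRN2, ATX1 and REF6, and light bars stacked on them are CLF, EMF2, ATX2 and ELF6. The sum of CLF and SWN overlaps between the groups, and the other 3 sums are lower at 2 days.

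Factors that assist or recruit PRC2 were called in either direction: of the 10 tested, 2 were higher, 4 lower and 4 not called (median log2 difference -0.049). By comparison, 39.2% of all tested genes were called higher and 29.5% lower. BPC1 (AT2G01930), which binds GA repeats and recruits PRC2, fell to 17.13 and 12.44 TPM at 2 days, against 30.6 and 32.05 TPM at time 0 (log2 difference -1.05, limma adjusted p = 0.00215). AZF1 (AT5G67450), a zinc-finger factor, rose at a low level, with 1.48 and 1.88 TPM at 2 days against 0.51 and 0.43 TPM at time 0 (log2 difference 0.86, limma adjusted p = 0.00631), a call lost with quantile normalization (0.38, limma adjusted p = 0.128). Of 6 tested PRC1 components, the complex that ubiquitinates histone H2A and includes partners of LHP1, 1 was higher, 1 lower and 4 not called (median 0.060). VRN1 (AT3G18990), a DNA-binding protein, had 36 and 38.14 TPM at 2 days, against 30.51 and 30.64 TPM at time 0 (log2 difference 0.27, limma adjusted p = 0.0111), and 5.72% of its windows occur in another gene. The VRN1 call was lost with quantile normalization (limma adjusted p = 0.0514), with the rescaled TPM (0.0727), without time 0 replicate 1 (0.0864) and without time 0 replicate 2 (0.0822). DRIP1 (AT1G06770), a RING-finger protein, had 5.17 and 4.05 TPM at 2 days, against 6.94 and 7.42 TPM at time 0 (log2 difference -0.55, limma adjusted p = 0.0135), a call lost without time 0 replicate 1 (0.0669) and without time 0 replicate 2 (0.0949).

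In the list of other H3K4 methyltransferases and the core of their complex, 1 of 10 tested members was higher, 3 lower and 6 not called (median -0.14). Over all tested genes 39.2% were higher and 29.5% lower. ATX2, given above, fell most. WDR5b (AT4G02730), a WD40 protein, had 9.62 and 8.26 TPM at 2 days, against 6.22 and 6.45 TPM at time 0 (log2 difference 0.44, limma adjusted p = 0.0137), a call lost without time 0 replicate 1 (0.0974) and without time 0 replicate 2 (0.0765). Its paralogue WDR5a (AT3G49660), the core subunit of that complex, fell to 4.89 and 5.61 TPM at 2 days, against 11.34 and 10.17 TPM at time 0 (log2 difference -0.91, limma adjusted p = 0.000991), and is named after its values were seen. Of the H3K4 demethylases, which remove methyl groups from H3K4, 0 of 7 tested were higher, 2 lower and 5 not called (median -0.20). FLD (AT3G10390) fell most of those called, to 6.91 and 7.04 TPM at 2 days, against 10.14 and 9.24 TPM at time 0 (log2 difference -0.42, limma adjusted p = 0.00861), a call lost without time 0 replicate 1 (0.0912).

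The other H3K36 methyltransferases went different ways. SDG26 (AT1G76710) fell to 12.48 and 11.71 TPM at 2 days, against 16.1 and 16.52 TPM at time 0 (log2 difference -0.40, limma adjusted p = 0.00510), a call lost without time 0 replicate 2 (0.0598). SDG4 (AT4G30860) had 8.65 and 9.24 TPM at 2 days, against 7.31 and 7.15 TPM at time 0 (log2 difference 0.27, limma adjusted p = 0.0338). Among other alternatives, the SDG4 call was lost with quantile normalization (limma adjusted p = 0.319), with the rescaled TPM (0.138), without a filter (0.0536), without 2 DAC replicate 2 (0.0924), without time 0 replicate 1 (0.154) and without time 0 replicate 2 (0.182). ASHH3, also called SDG7 (AT2G44150), had 16.34 and 15.57 TPM at 2 days, against 14.61 and 14.88 TPM at time 0 and was not called, and SDG24 (AT3G59960) was listed at 0 in all 4 libraries.

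Of the H3K27 monomethyltransferases, which act during DNA replication, ATXR5 (AT5G09790) fell to 5.07 and 4.87 TPM at 2 days, against 7.51 and 8.28 TPM at time 0 (log2 difference -0.57, limma adjusted p = 0.00376). ATXR6 (AT5G24330) had 2.45 and 2.95 TPM at 2 days, against 2.2 and 2.36 TPM at time 0, and was not called. Of the genes for H3K9 methylation 0 of 6 were higher, 1 lower and 5 not called (median -0.011). The shares over all tested genes were 39.2% higher and 29.5% lower. SUVH9 (AT4G13460), which helps to recruit the DNA methylation machinery, had 22.21 and 19.48 TPM at 2 days, against 24.69 and 25.38 TPM at time 0 (log2 difference -0.26, limma adjusted p = 0.0395), a call lost, among other alternatives, without a filter (0.0620), without the variance trend (0.0586), without 2 DAC replicate 2 (0.0794), without time 0 replicate 1 (0.145) and without time 0 replicate 2 (0.190).

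In the list of trithorax group genes, 3 of 4 tested members were lower (median -0.33), against 29.5% of all tested genes. ULT1 (AT4G28190), a SAND-domain protein known to oppose CLF, fell to 4.42 and 3.76 TPM at 2 days, against 12.09 and 12.59 TPM at time 0 (log2 difference -1.39, limma adjusted p = 0.000190). The remodelling ATPase BRM (AT2G46020) had 26.22 and 23.7 TPM at 2 days, against 32.6 and 32.83 TPM at time 0 (log2 difference -0.38, limma adjusted p = 0.00603), a call lost without time 0 replicate 1 (0.0522) and without time 0 replicate 2 (0.0551). Its relative SYD (AT2G28290) had 25.59 and 22.78 TPM at 2 days, against 29.67 and 29.7 TPM at time 0 (limma adjusted p = 0.0206), a call lost without time 0 replicate 1 (0.115) and without time 0 replicate 2 (0.115). PKL (AT2G25170), a CHD3 remodeller, had 29.41 and 26.01 TPM at 2 days, against 29.19 and 29.25 TPM at time 0, and was not called.

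Among the 52 tested genes of these lists, the one most like each regulator was taken by the smallest Euclidean distance between log2(TPM + 1) values over the 4 libraries after subtracting each gene's mean. CLF was closest to SYD, at a distance of 0.0257, and ATX1 was also closest to SYD, at 0.0666. EMF2 was closest to the B3-domain repressor VAL2, at 0.0442. SDG8 and FIE were both closest to the H3K4 methyltransferase ATXR3, at 0.0499 and 0.0528. VRN2 and LHP1 were both closest to the demethylase LDL1, at 0.0680 and 0.0875, REF6 to the H3K4 demethylase JMJ14, at 0.0697, and SWN to the Jumonji gene PKDM7D, at 0.0786.

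Genes known as Polycomb targets, from a list of 17, were mostly at or near 0 in both groups. LEC1, LEC2, ABI3 and WUS, regulators of embryo and stem cell identity, were listed at 0 in all 4 libraries. Another 11 genes (AG, STM, FUS3, SEP3, FT, KNAT1, KNAT2, AP3, PI, AGL19 and DOG1) did not reach the limit for testing, with a highest value of 1.01 TPM, for SEP3 in 1 of the cultured libraries. At these low levels both cultured libraries were higher than both of time 0 for SEP3, FT, KNAT1 and KNAT2. They were lower for STM, PI, AGL19 and DOG1, and the groups overlapped for AG, FUS3 and AP3. Of the tested genes, which averaged 1 TPM or more, 48.2% were higher in this sense and 37.7% lower. How many reads lie behind values this low is unknown. The floral gene SEP3 stood at 1.01 and 0.5 TPM at 2 days, against 0.2 and 0.24 TPM at time 0. The homeobox gene KNAT2 stood at 0.32 and 0.28 TPM at 2 days, against 0.08 and 0.06 TPM at time 0. In the other direction, DOG1 stood at 0.14 and 0.06 TPM at 2 days, against 0.46 and 0.47 TPM at time 0. The other 2 genes of the list were tested, and both were called lower, as were 29.5% of all tested genes. PHE1 (AT1G65330), a MADS-box gene known from the endosperm, had 0.51 and 0.31 TPM at 2 days, against 11.61 and 11.72 TPM at time 0 (log2 difference -3.17, limma adjusted p = 2.74e-05), with 6.89% of its windows in another gene. FLC (AT5G10140), a repressor of flowering, had 0.98 and 0.7 TPM at 2 days, against 1.76 and 1.49 TPM at time 0 (limma adjusted p = 0.0379), and an opposite-strand gene covers 55.8% of its windows. Among other alternatives, the FLC call was lost without 2 DAC replicate 2 (limma adjusted p = 0.0551), without time 0 replicate 1 (0.157) and without time 0 replicate 2 (0.0843).

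Markers of several tissues differed between the groups, while most vascular markers were not called. For comparison, 39.2% of all tested genes were called higher and 29.5% lower. The summed level of 6 mesophyll markers was 3929 and 3886 TPM at 2 days, against 26155 and 24988 TPM at time 0, with 5 members lower and 1 higher. RBCS1A, given below, made up most of the sum at time 0. The member called higher was LHCB2.1, with 339.48 and 325.3 TPM at 2 days against 173.68 and 177.43 TPM at time 0. Of the LHCB2.1 windows, 21.9% occur in another gene. The sum of 8 markers of dividing cells was 132 and 144 TPM at 2 days, against 83.3 and 88.8 TPM at time 0, with 6 higher and 2 not called. Markers of guard cells and their lineage (FAMA, TMM, MYB60 and KAT1) summed to 25.6 and 22.6 TPM at 2 days against 50.8 and 54.6 TPM at time 0 (3 of 4 lower). FAMA had 9.97 and 9.6 TPM at 2 days against 25.97 and 25.91 TPM at time 0. KAT1 was not called, with 6.97 and 4.51 TPM at 2 days against 5.02 and 5.62 TPM at time 0. Vascular markers summed to 182.0 and 185 TPM at 2 days against 162 and 156 TPM at time 0 (1 of 6 higher, 5 not called). Epidermal markers summed to 146 and 172 TPM at 2 days against 289 and 277.1 TPM at time 0, with 3 of 4 lower and 1 higher. The higher one, CER1 of wax synthesis, made up most of the sum at 2 days, with 117.7 and 150.29 TPM at 2 days against 7.31 and 7.16 TPM at time 0. PDF1, which made up most of the sum at time 0, had 2.63 and 1.28 TPM at 2 days against 201.75 and 193.96 TPM at time 0. None of these markers was at 0 in any library. The mesophyll marker RBCS1A stood high in both groups, with 1482 and 1532 TPM at 2 days against 15271 and 14371 TPM at time 0. CA1 of the same list did not, with 10.41 and 4.69 TPM at 2 days against 1018.98 and 985.5 TPM at time 0. The part of tissue composition in the differences of the 9 regulators was not tested.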

How the data were processed

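RNA was sequenced from 4 libraries, 2 per group, and groups came from the sample titles. The authors deposited 1 table of TPM per gene, given to 2 decimal places. Per the submitters' processing notes, the tools were RSEM 1.3.2, STAR 2.7.2b and Trim Galore 0.5.0, and the genome was TAIR10. Strand setting, filters and annotation release: not given in the sources used here. TPM keeps no depth, so the depth of each library is unknown and no counting interval was given.

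The 9 genes and all lists were chosen with earlier results of these data known. Of 63 genes in the other chromatin lists, 6 did not pair with their symbol in RefSeq (TAIR10.1) and were left out. The test took every gene averaging 1 TPM or more (19078 genes, all 9 regulators among them), on log2(TPM + 1), which understates changes of low genes, with limma 3.58.1 in R 4.3.3, a mean-variance trend and Benjamini-Hochberg adjustment. In each list the called genes with the largest rise and the largest fall are named, and small lists in full. Shared and opposite-strand sequence was counted in windows of 50 bases of RefSeq transcripts. Alternatives changed the pseudocount, filter, scaling, variance model, block and libraries. Shares were compared with scipy 1.17.1, and figures drawn with matplotlib 3.10.9.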

Additional observations from a re-analysis of the deposited data

How the results depend on the processing

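With pseudocounts of 0.1 and 5 and a mean of at least 5 TPM, the same count of regulators was called, 1 higher and 4 lower. Called regulators numbered 1 higher and 2 lower without a filter, 0 and 6 with quantile normalization, 0 and 6 with the rescaled TPM, and 0 and 3 without a variance trend. In the same 4 settings, all tested genes gave 7960 higher and 5813 lower, 6385 and 7187, 6495 and 6694, and 7397 and 5577. Leaving out 1 library gave 0 to 1 higher and 0 to 2 lower regulators, with 1 residual degree of freedom per gene and the lone library assumed to vary like the other group. The cause of the lost calls was not tested. The SWN call was lost in 7 of 12 alternatives, that of VRN2 in 6, those of CLF and REF6 in 5 and that of LHP1 in 4, each with its direction unchanged. FIE turned to -0.049 with quantile normalization and -0.074 with the rescaled TPM, and SDG8 to -0.065 and -0.077. Without 1 library FIE ranged from -0.056 to 0.15 and SDG8 from -0.072 to 0.15, the lowest values without 2 DAC replicate 1, and limma called neither gene in any alternative. Other chromatin genes called higher numbered 3 with quantile normalization and 3 with the rescaled TPM. Leaving out 1 library gave 2 to 5 higher and 10 to 19 lower. The share of SWN differed by 7.72 to 9.20 percentage points without 1 library, and that of VRN2 by -1.45 to 1.82.

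The replicate numbers are not stated to pair libraries, and deviations of same-numbered libraries from their group means had a correlation of -0.067 across 19078 tested genes. With the replicate number as a block, which also leaves 1 residual degree of freedom per gene, 0 regulators were called higher and 1 lower (LHP1). In all, 7101 genes were called higher and 5283 lower with the block, against 7485 and 5636 without it. Of the other genes named in the text as called, SDG4 (limma adjusted p = 0.0794), SUVH9 (0.0634) and FLC (0.0570) lost their call under the block. TPM carries no depth, so a limit on small differences from counting error cannot be set.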
